A study of Mus musculus with 12 samples.

Results

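Collagens are the triple-helical proteins of the extracellular matrix, and their genes are described here in mouse liver and in quadriceps muscle at 4 weeks of age. Every gene symbol made of Col, a number, the letter a and a number was taken from the probe annotation of the array, using the probe sets with 1 symbol. This gave 42 collagen genes of 18194 annotated genes, with 82 of 34958 single-symbol probe sets, and each gene is represented in a tissue by the probe set with the highest mean over the 6 samples. C57BL/6 dams were fed a normal protein diet with 20% casein during gestation, with plain drinking water (NP) or with 1% taurine in the water from day 1 of pregnancy until birth (NP+tau), and the offspring were killed at 4 weeks. Each of the 4 groups (liver NP, liver NP+tau, muscle NP and muscle NP+tau) holds 3 samples, and by the study's methods each pup came from another dam and gave liver and muscle, so that the samples are separate animals within a tissue. The pups themselves were measured weeks after the supplementation had ended, in whole pieces of tissue, and fewer cells of a type and less RNA per cell cannot be told apart in such samples. Values are log2 expression levels from Affymetrix mouse expression arrays, normalised apart in each tissue, so that levels are compared within a tissue and within a probe set. Each difference is the NP+tau mean less the NP mean, in log2 units.

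Collagens differ in how they assemble. The fibrillar types, with types I and III the most abundant in soft tissue, form the cross-striated fibrils that carry tension, types II and XI form the fibrils of cartilage, and the FACIT collagens bind to fibril surfaces. Type IV builds the sheet of basement membranes, with types XV and XVIII beside it, while type VI forms beaded filaments around cells and is best known in muscle, where its loss causes muscular dystrophy. In liver, collagen is made mainly by stellate cells and portal fibroblasts, and in muscle by the fibroblasts of the connective tissue sheaths.

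Hepatocyte markers had a mean level of 13.6 to 13.9 in the 6 livers and skeletal muscle markers one of 13.7 to 14.2 in the 6 muscles. Among the liver arrays, NP+tau replicate 1 lay away from the rest, with a median absolute deviation of 0.28 from the median array over all probes against 0.06 to 0.11 in the other livers, while the muscle arrays lay between 0.06 and 0.13. The X-inactivation transcript Xist reached 11.6 to 11.8 in NP liver, against 11.1, 5.96 and 5.07 in the NP+tau livers (replicates 1, 2, 3). Muscle gave 10.8 to 11.1 in NP and 10.9, 5.56 and 5.12 in NP+tau. Eif2s3y, a gene of the Y chromosome, ran the other way. Its level in NP+tau replicates 2 and 3 reached 8.55 and 8.57 for liver, 9.37 and 9.24 for muscle. All other samples stayed within 3.58 to 3.78 (liver) or 3.48 to 3.71 (muscle). By these genes, the NP samples and NP+tau replicate 1 were female and NP+tau replicates 2 and 3 male, although the methods describe every group as holding pups of both sexes. Sex is therefore partly confounded with taurine in every NP+tau minus NP difference. No probe passed limma in either tissue at an adjusted p under 0.05 (0% of 29274 probes in each), with 205 probes higher and 1167 lower in liver and 1090 higher and 703 lower in muscle at an unadjusted p under 0.05.

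In NP+tau liver, the chains of type VI collagen and of type I collagen had lower levels than in NP liver, and none of the differences passed the test. Of the 42 collagen genes, 35 passed the filter on dim probes (a highest value of at least 4.60), 6 of them through 1 array only, which was NP+tau replicate 1 each time. The median difference of the 35 was 0.16 against -0.04 for the 14202 genes that passed, and that of all 42 was 0.14 against 0.01 for all 18194. Without the 6 collagens that passed through 1 array, the median of the other 29 was 0.03, with 15 above and 14 below 0. At an unadjusted p under 0.05, 4 collagens were lower (11.4% of 35, against 3.99% of all probes) and 1 was higher (2.86%, against 0.7% of all probes). The NP and NP+tau livers did not overlap for 3 lower collagens (8.57%, against 9.11% of all probes) and 6 higher ones (17.1%, against 5.73% of all probes), of which Col10a1 had passed the filter through 1 array. The smallest adjusted p of a collagen was 0.72. Counts of so few genes moved with single livers: the 4 lower collagens became 2 without NP replicate 1, 2 or NP+tau replicate 2, and 7 without NP replicate 3, and the collagen median was 0.04 without NP+tau replicate 1 and 0.09 without NP replicate 3. The shares of all probes in the fits with 1 liver left out are not given here, so whether these counts moved more than all probes did is not shown. In muscle, 38 of 42 collagens passed the filter (at least 4.49), 2 of them through 1 array, and their median difference was 0.05 against 0.03 for the 13810 genes that passed. It was 0.01 over all 42 collagens against -0.01 over all 18194 genes. One collagen was higher and 1 lower at an unadjusted p under 0.05 (2.63% each, against 3.72% and 2.4% of all probes), and the groups did not overlap for 1 higher and 1 lower collagen (2.63% each, against 7.33% and 7.77%). The collagen median in muscle had no stable sign, since it was -0.30 without NP replicate 1, -0.04 without NP+tau replicate 1, -0.07 without NP+tau replicate 3 and 0.34 without NP replicate 3, and -0.01 with the arrays centred on their medians.

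**Figure D1:**
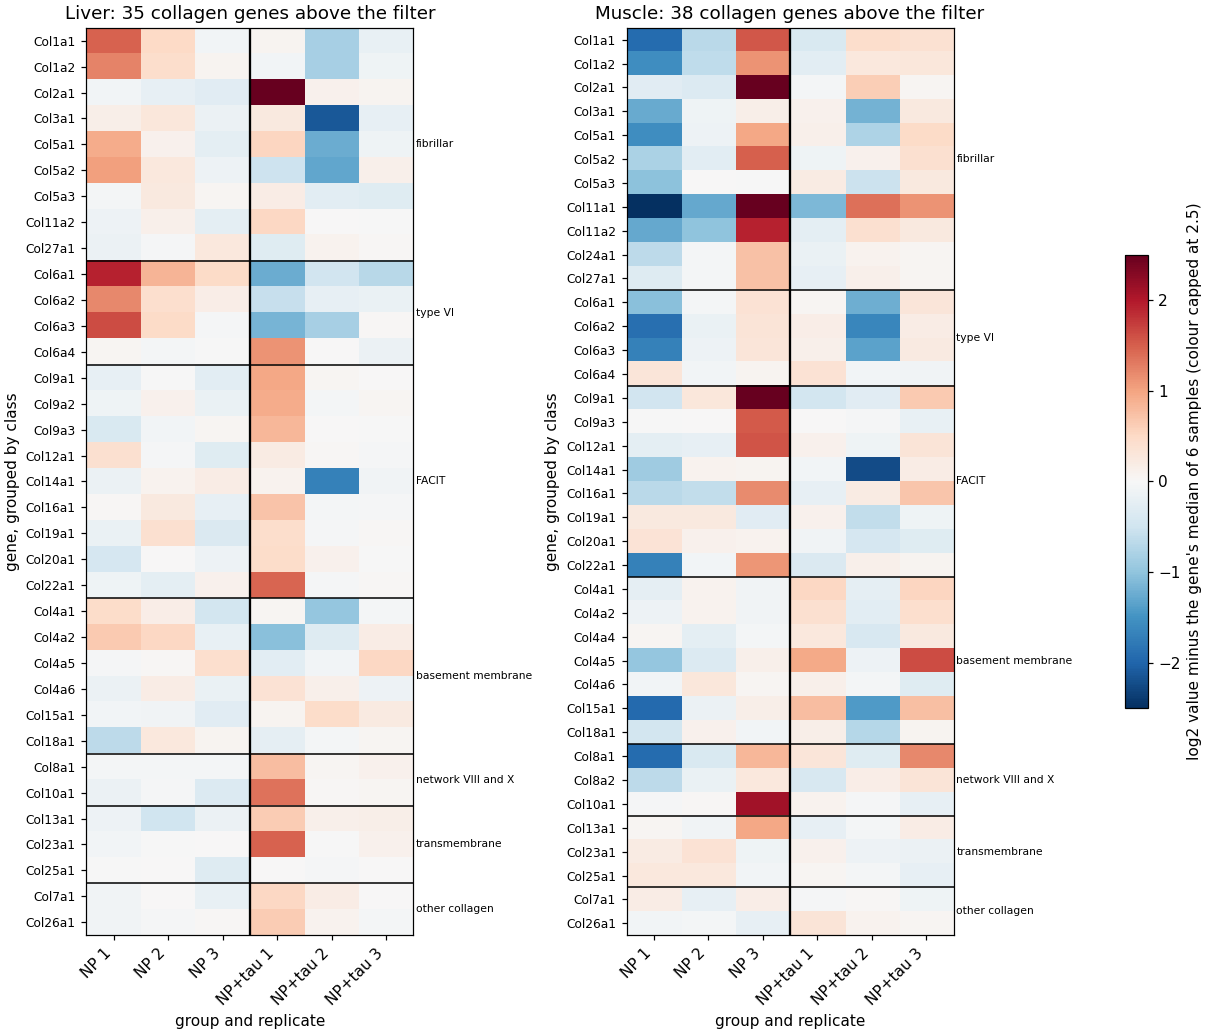
Each row is a collagen gene that passed the filter, grouped by class, and each column a sample; colour gives the log2 value minus the gene's median of the 6 samples of the tissue. In liver, red in the column of NP replicate 1 falls on types I, V and VI and NP+tau replicate 1 is highest for 17 of 35 genes, and in muscle 9 of 11 fibrillar genes are highest in NP replicate 3 and 10 lowest in NP replicate 1.

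**Figure D2:**
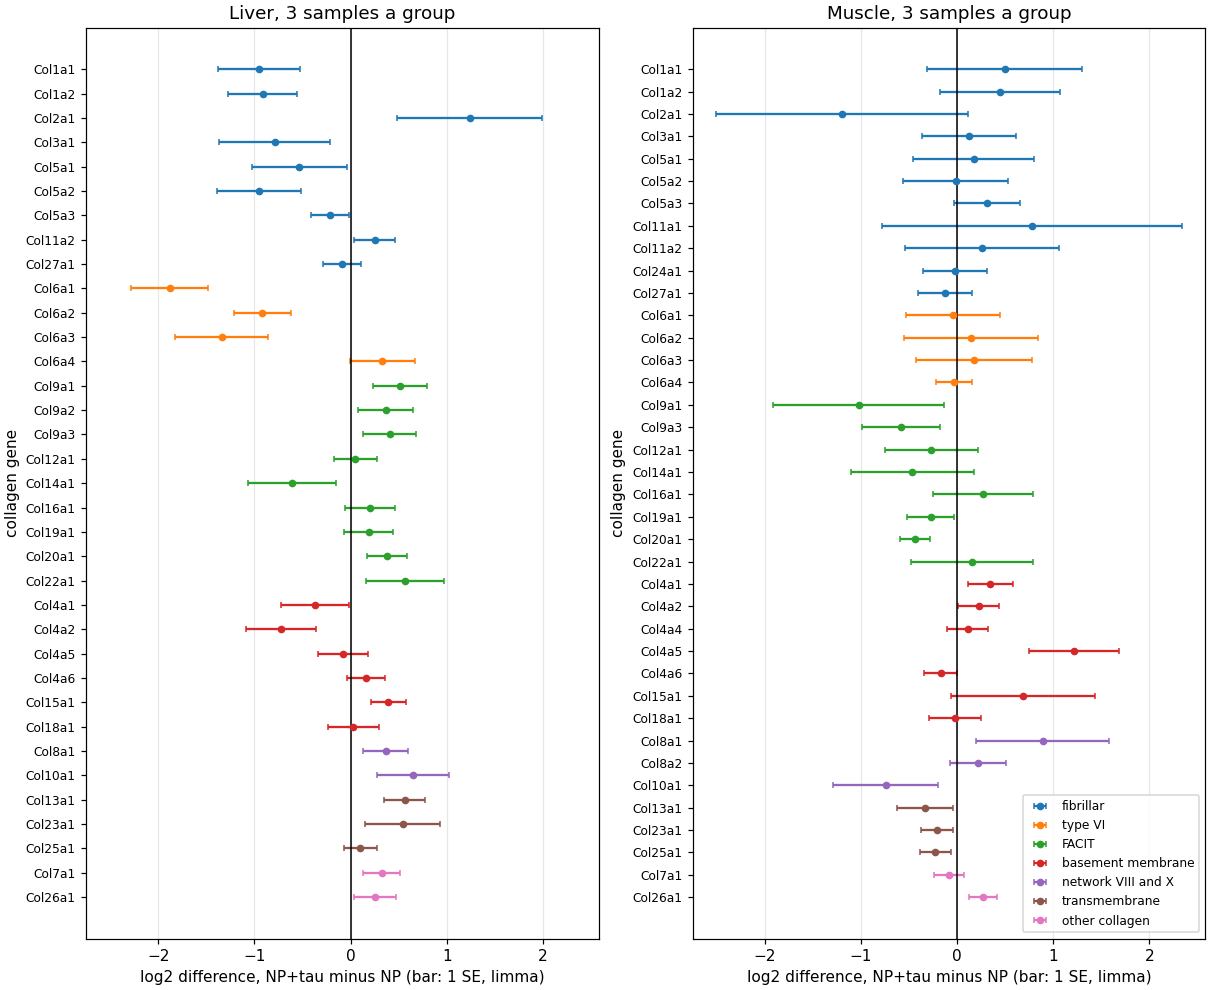
Points are the log2 differences NP+tau minus NP of the collagens that passed the filter (35 in liver, 38 in muscle) and bars are 1 standard error from limma, with 3 samples per group. Col6a1 in liver, at -1.88, lies farthest from 0, while Col4a5 in muscle, at 1.22, lies farthest above 0 there.

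Type VI collagen is a heteromer of 1 chain each of Col6a1, Col6a2 and Col6a3. Col6a1 was at 8.40, 7.32 and 6.95 in NP livers 1, 2 and 3 and at 5.24, 6.00 and 5.79 in NP+tau livers 1, 2 and 3. Each NP+tau liver lay below each NP liver, and NP replicate 1 was the highest of the 6. The difference was -1.88 (standard error 0.40), a 3.68-fold lower level, with an unadjusted p of 0.0023 and an adjusted p of 0.72 from limma. Col6a2 was at 8.43, 7.65 and 7.38 in NP and at 6.64, 7.01 and 7.06 in NP+tau liver. Again the groups did not overlap, by a narrower gap, and the difference was -0.92 (standard error 0.30, adjusted p = 0.72 from limma), with a second probe set of the gene at -0.52. Col6a3, the longest of the 3 chains, was at 8.83, 7.68 and 7.17 in NP and at 6.04, 6.37 and 7.24 in NP+tau liver, so that NP+tau replicate 3 reached the lowest NP liver. Its difference was -1.34 (standard error 0.49, adjusted p = 0.72 from limma). With 1 liver left out in turn, the difference of Col6a1 lay between -2.18 and -1.46, that of Col6a2 between -1.14 and -0.61 and that of Col6a3 between -1.70 and -0.87. Without NP replicate 1 and NP+tau replicate 1 together, a fit chosen after seeing the data, they were -1.24, -0.48 and -0.62, and over the family an unadjusted p under 0.05 was reached by 4 lower collagens (against 3.27% of all probes) and 3 higher ones (against 1.93%). The remaining members of the class were dim: Col6a4 lay at 4.06 to 4.25 in 5 livers and at 5.32 in NP+tau replicate 1, and Col6a5 did not pass the filter.

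Type I collagen and Col5a2 had lower mean levels in NP+tau liver, and NP+tau replicate 2 was the lowest liver for the chains of types I, III and V named here. Col1a1, one of the chains of type I collagen, was at 8.01, 7.02 and 6.46 in NP and at 6.59, 5.69 and 6.35 in NP+tau liver. The highest NP+tau liver exceeded the lowest NP liver, and the difference was -0.95 (standard error 0.43). Its partner chain Col1a2 was at 9.72, 8.92 and 8.54 in NP and at 8.41, 7.65 and 8.37 in NP+tau, without overlap (difference -0.92, standard error 0.36, adjusted p = 0.72 from limma). Both chains followed each other, since Col1a1 minus Col1a2, which carries the offset between the probe sets, stayed between -2.08 and -1.72 in all 6 livers. Col3a1, the chain of type III collagen, was at 11.1, 11.2 and 10.8 in NP and at 11.2, 8.80 and 10.7 in NP+tau liver. Here NP+tau replicate 2 alone was low, and the difference was -0.79 (standard error 0.58), or -0.08 without that liver. The same liver was the lowest for Col5a1 (6.14 against 7.14 to 8.30) and Col5a2 (6.21 against 6.99 to 8.54), which form the type V collagen at the core of fibrils. Their differences were -0.53 for Col5a1 and -0.95 for Col5a2. With 1 liver left out, that of Col5a1 lay between -0.94 and -0.05 and that of Col5a2 between -1.30 and -0.58. For Col1a1 this range was -1.30 to -0.53. Col14a1, a FACIT collagen on the surface of type I fibrils, was at 9.10 to 9.42 in 5 livers and at 7.54 in NP+tau replicate 2. Of the 9 fibrillar genes that passed the filter, 7 had a difference below 0, with a class median of -0.53, which became -0.15 without NP+tau replicate 2 and -0.28 without NP replicate 1. Col2a1, the main collagen of cartilage, was the exception in size: it lay at 4.54 to 4.92 in 5 livers and at 7.82 in NP+tau replicate 1.

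**Figure D3:**
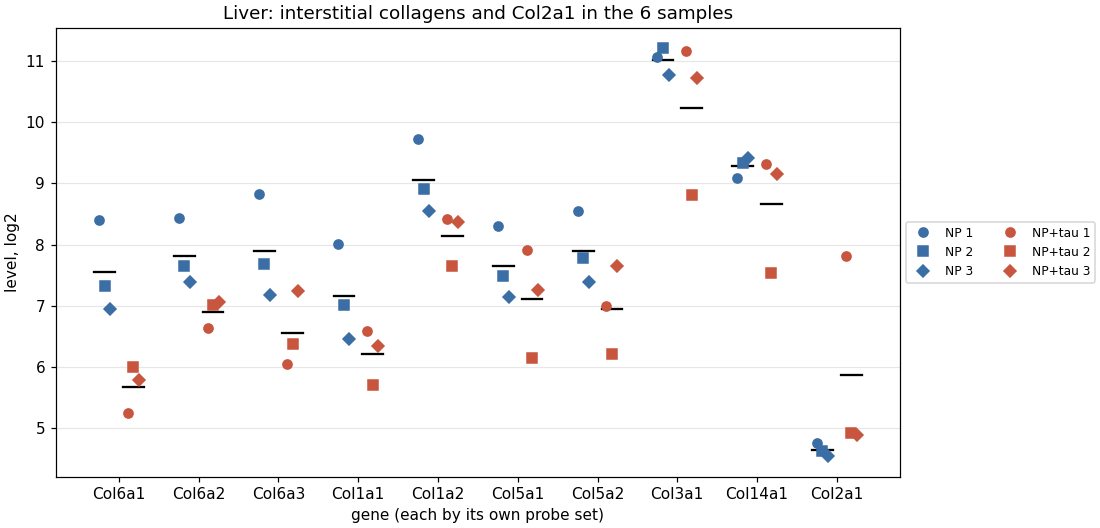
Log2 levels of 10 collagens in the 6 livers, with blue for NP, red for NP+tau, marker shapes for replicates 1 to 3 and black bars for the group means. The NP+tau values of Col6a1, at 5.24 to 6.00, lie below its NP values, Col3a1 and Col14a1 are low in NP+tau replicate 2, and Col2a1 stands at 7.82 in NP+tau replicate 1.

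The start regions of 4 of these genes are printed because Col6a1 and Col6a2 are neighbours on chromosome 10 whose liver levels were both lower, and because Col1a2 and Col3a1, both fibrillar, differed in their order over the muscles. The sequences are the 250 bases before the transcript start, read on the strand of the gene from RefSeq on GRCm38.p6, where 33 of the 42 collagens had an entry. Capitals mark every match, on either strand, to the CCAAT box, to a TATA box spelled TATAAA and to a GC box spelled GGGCGG. These lie at chr10:76726045-76726294 (minus strand) for Col6a1, at chr10:76623631-76623880 (minus strand, the outer of 2 starts) for Col6a2, at chr6:4505368-4505617 (plus strand) for Col1a2 and at chr1:45311288-45311537 (plus strand) for Col3a1.
Col6a1: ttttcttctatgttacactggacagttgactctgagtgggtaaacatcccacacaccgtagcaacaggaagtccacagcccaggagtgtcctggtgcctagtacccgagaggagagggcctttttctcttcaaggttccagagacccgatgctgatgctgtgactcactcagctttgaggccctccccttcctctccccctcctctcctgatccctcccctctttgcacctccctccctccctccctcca
Col6a2: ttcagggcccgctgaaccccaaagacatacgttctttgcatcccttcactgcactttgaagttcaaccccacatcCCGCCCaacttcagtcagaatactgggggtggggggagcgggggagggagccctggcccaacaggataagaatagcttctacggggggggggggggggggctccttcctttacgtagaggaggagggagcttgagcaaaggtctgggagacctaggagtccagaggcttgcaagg
Col1a2: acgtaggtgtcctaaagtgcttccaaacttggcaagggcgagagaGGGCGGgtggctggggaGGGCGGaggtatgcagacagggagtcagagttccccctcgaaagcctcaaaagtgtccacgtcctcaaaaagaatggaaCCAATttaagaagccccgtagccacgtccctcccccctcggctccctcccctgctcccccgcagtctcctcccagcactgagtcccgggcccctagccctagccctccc
Col3a1: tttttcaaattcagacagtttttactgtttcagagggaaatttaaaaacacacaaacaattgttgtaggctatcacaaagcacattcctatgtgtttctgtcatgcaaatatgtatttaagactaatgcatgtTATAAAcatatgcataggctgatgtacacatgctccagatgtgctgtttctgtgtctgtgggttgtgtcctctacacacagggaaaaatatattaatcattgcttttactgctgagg
The Col6a1 window held none of the 3 motifs and the Col6a2 window 1 GC box, while the window of the other Col6a2 start, not printed, held 3. In the Col1a2 window there were 1 CCAAT box and 2 GC boxes, and in the Col3a1 window 1 TATA box. Over the 36 start regions of the 33 collagens, 36.1% held a CCAAT box, 13.9% a TATA box and 58.3% a GC box, against 33.8%, 12.4% and 32.7% of 32851 start regions of the same length. A match of letters is a description and not a site of binding.

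Among the FACIT collagens of liver, 8 of 9 had a difference above 0, with a median of 0.36, and 7 of the 9, Col9a2 by the filter, were highest in NP+tau replicate 1, the array that stood apart. Col22a1 was at 4.88 to 5.23 in 5 livers and at 6.58 in that one. Col9a1, a chain of the type IX collagen of cartilage, was at 4.81, 4.999 and 4.75 in NP and at 5.99, 5.07 and 5.04 in NP+tau liver, so that the groups did not overlap, though replicates 2 and 3 of NP+tau lay close to the highest NP liver. By the mean of all probes of a gene the FACIT median was 0.18, with 5 genes above and 2 below 0. Of all genes that passed the filter, 53.7% were below 0. Without NP+tau replicate 1 the FACIT median was 0.06, with 6 of 9 above 0. Over all classes, this array was the highest for 17 of 35 collagens, and by more than 1 for Col2a1, Col6a4, Col10a1, Col22a1 and Col23a1. Of the 17, 6 (Col6a4, Col9a2, Col10a1, Col11a2, Col23a1 and Col26a1) passed the filter through this array alone and had to be highest there, and among the other 29 collagens it was highest for 11. NP replicate 1 was the highest for 10, by more than 1 for Col6a1 and Col6a3. Col10a1, the collagen of hypertrophic cartilage, was at 3.99 to 4.39 in 5 livers and at 5.69 in NP+tau replicate 1, and the transmembrane collagen Col23a1 at 3.95 to 4.12 and 5.48. Col13a1, a transmembrane collagen of cell adhesions, was at 5.03, 4.66 and 5.01 in NP and at 5.79, 5.29 and 5.30 in NP+tau liver. All NP+tau livers lay above all NP livers, by a difference of 0.56 (standard error 0.22, unadjusted p = 0.036, adjusted p = 0.72 from limma). With the Xist level as a covariate, 14 of 35 collagens passed at an adjusted p under 0.05, 12 higher and 2 lower (Col6a1 and Col4a2), where 14.2% of all probes passed as higher and 18.1% as lower. Of the 12 higher ones, 5 (Col6a4, Col9a2, Col10a1, Col23a1 and Col26a1) had passed the filter through NP+tau replicate 1 alone. NP+tau replicate 1 is the one NP+tau liver with Xist at the NP level, so that this fit sets in effect that array against the NP livers, and sex and array cannot be told apart in it.

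Basement membrane collagens of liver showed no common direction, with 3 of 6 above 0 and a median of -0.03. Col4a1 was at 10.1, 9.80 and 9.18 in NP and at 9.70, 8.68 and 9.59 in NP+tau liver (difference -0.37, standard error 0.35). Col4a2, its partner in the ubiquitous type IV trimer, was at 8.87, 8.72 and 8.02 in NP and at 7.17, 7.88 and 8.39 in NP+tau (difference -0.72, standard error 0.37). The offset between their probe sets, Col4a1 minus Col4a2, was 0.80 to 1.23 in 5 livers and 2.53 in NP+tau replicate 1, although the genes lie head to head on chromosome 8 in the annotation. Col18a1, the source of endostatin and the collagen that hepatocytes make, was at 10.8, 11.7 and 11.5 in NP and at 11.2, 11.4 and 11.5 in NP+tau liver, a difference of 0.03 (standard error 0.27). Col15a1, its relative, was at 4.62, 4.61 and 4.40 in NP and at 4.76, 5.14 and 4.90 in NP+tau, without overlap (difference 0.39, standard error 0.18, adjusted p = 0.72 from limma). Col4a3 and Col4a4 did not pass the filter.

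Partners that build the fibril lay lower together with type I and type VI collagen in NP+tau liver. Of 9 measured fibril assembly partners above the filter, 7 were below 0 (against 53.7% of all genes that passed the filter) and 4 were lower at an unadjusted p under 0.05 (against 3.99% of all probes), with 0 passing adjustment. The small proteoglycan Bgn was at 10.1, 9.72 and 9.39 in NP and at 8.87, 8.81 and 9.30 in NP+tau liver (difference -0.73, standard error 0.24). Postn, a matricellular protein that binds type I collagen, differed by -1.07 (standard error 0.37) and Lum, a proteoglycan that limits fibril width, by -1.34 (standard error 0.53), each without overlap. Of 15 genes of collagen modification and folding, 11 were below 0 and 1 was lower at an unadjusted p under 0.05, against the same shares of 53.7% and 3.99%. That 1 gene was Crtap, a subunit of the prolyl 3-hydroxylase complex, at 8.68, 7.91 and 7.60 in NP and 6.88, 7.07 and 7.33 in NP+tau liver (difference -0.97, standard error 0.30, adjusted p = 0.72 from limma). The lysyl hydroxylase Plod2 differed by -1.07 (standard error 0.47) and the prolyl 3-hydroxylase P3h2 by -0.65 (standard error 0.29). Among 9 genes of collagen breakdown, 8 were below 0, with Mmp14, a membrane collagenase, at -0.80 (standard error 0.34), the inhibitor Timp2 at -0.48 (standard error 0.21) and Timp3 at -0.69 (standard error 0.35). The 8 genes of procollagen export and cleavage (3 above 0, 5 below 0), the 4 of cross-linking (2 and 2) and the 7 collagen receptors (4 and 3) had no gene at an unadjusted p under 0.05. The 3 with the smallest p of the first list were the procollagen C-proteinase Bmp1 at 0.30 (standard error 0.22), its enhancer Pcolce at -0.57 (standard error 0.43) and Pcolce2 at -0.28 (standard error 0.21). In cross-linking, Loxl4 differed by 0.56 (standard error 0.33), Lox by -0.16 (standard error 0.22) and Loxl3 by 0.21 (standard error 0.33). Lox passed the filter through NP replicate 1 alone. Among receptors, the integrin chains Itgb1 and Itga2 differed by -0.50 (standard error 0.33) and 0.33 (standard error 0.25), and Lair1 by -0.25 (standard error 0.21). Itga2 passed the filter through NP+tau replicate 1 alone, at 4.88 against 3.95 to 4.17 in the other livers. Lair1 passed it through NP replicate 1 alone.

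Markers of macrophages and neutrophils were mostly lower in NP+tau liver, while those of fibroblasts and stellate cells had no common direction. Of 12 fibroblast and stellate cell markers, 10 passed the filter and 5 were below 0, with Pdgfra at 7.95, 6.61 and 6.49 in NP and 5.19, 6.07 and 5.51 in NP+tau, and Pdgfrb at 8.31, 6.96 and 6.88 in NP and 6.54, 6.24 and 6.03 in NP+tau. Lrat, the stellate cell enzyme that stores vitamin A, had a difference of 0.45 in the opposite direction. Ngfr was also higher, by 0.68 (standard error 0.24), without overlap of the groups. Clec3b differed by 0.67 (standard error 0.38) but passed the filter through NP+tau replicate 1 alone. It was at 5.83 in that liver and at 4.09 to 4.48 in the others. The mean level of the list was 5.92 to 6.21 over the NP and 5.74 to 5.90 over the NP+tau livers. All 11 macrophage markers were below 0, with a mean level of 9.11 to 9.98 over the NP and 7.62 to 8.68 over the NP+tau livers. The 8 neutrophil markers had a mean level of 9.62 in NP replicate 1, 6.52 and 6.58 in the other NP livers and 5.10 to 5.65 in NP+tau. Endothelial markers were below 0 for 7 of 8, with a mean level of 7.17 to 7.43 over the NP and 6.66 to 7.36 over the NP+tau livers. The part of these cells in the collagen differences was not tested.

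**Figure D4:**
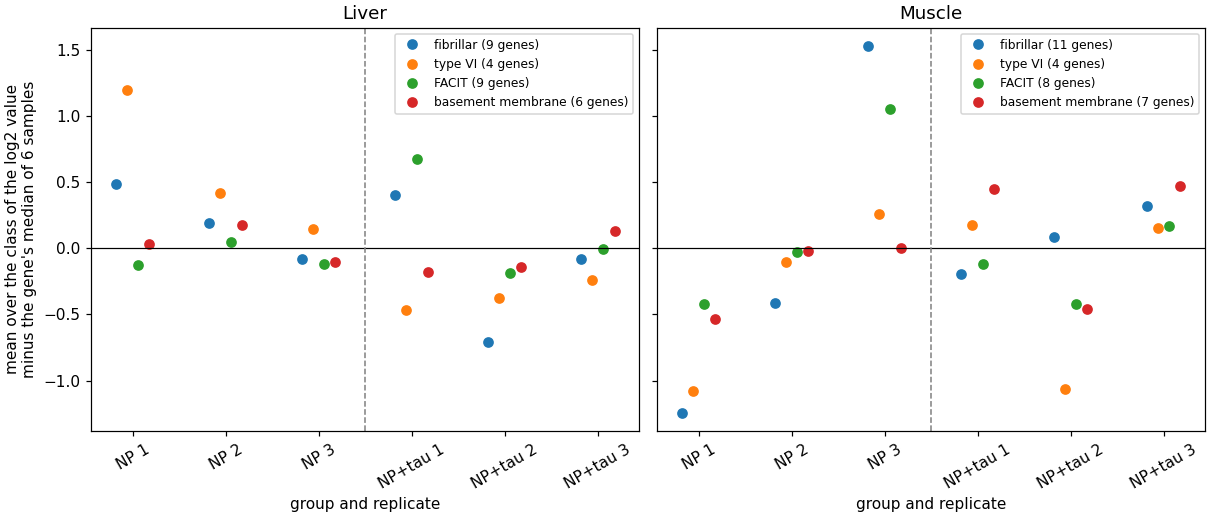
Points give, for each sample, the mean over a collagen class of the log2 value minus the gene's median of 6 samples, for the 4 largest classes in liver and muscle. Type VI is at 1.20 in liver NP replicate 1 and at -0.47 to -0.24 in NP+tau, and the fibrillar class in muscle runs from -1.24 in NP replicate 1 to 1.53 in NP replicate 3.

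In muscle, the 3 NP samples lay far apart in collagen levels, and the fibrillar genes of NP+tau muscle lay mostly between them. NP replicate 3 was the highest of the 6 muscles for 19 of 38 collagens and NP replicate 1 the lowest for 20, and among the 11 fibrillar genes these counts were 9 and 10. Col24a1, one of the 9, passed the filter through NP replicate 3 alone. Col1a1 was at 10.8, 12.03 and 14.3 in NP muscles 1, 2 and 3 and at 12.3, 13.1 and 13.1 in NP+tau muscles 1, 2 and 3. The NP muscles thus enclosed the NP+tau muscles, and the difference was 0.49 (standard error 0.80). Col1a2 had the same order, with 11.6, 12.5 and 14.2 in NP and 12.8, 13.4 and 13.4 in NP+tau (difference 0.45, standard error 0.62). Genes of cartilage collagen were among the 9 that NP replicate 3 exceeded by more than 1 over the next muscle. Col2a1 was at 5.68 to 6.65 in 5 muscles and at 10.9 in NP replicate 3, and its partner Col11a1 was at 4.19, 5.94 and 10.6 in NP and at 6.10, 8.60 and 8.34 in NP+tau. Col9a1 was at 4.60 to 5.73 in 5 muscles and at 8.27 in NP replicate 3, Col9a3 at 4.41 to 4.60 and 6.12, and Col10a1 at 4.35 to 4.65 and 6.65. Col1a1, Col5a2, Col11a2 and Col12a1 complete the 9.

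Without NP replicate 3, all 11 fibrillar genes had a difference above 0, with a median of 0.66 against 0.17 with it. In that fit 8 collagens were higher at an unadjusted p under 0.05 against 4.64% of all probes, among them Col1a1 (1.45), Col1a2 (1.19), Col11a1 (2.61), Col11a2 (1.28) and Col5a2 (0.66), and the smallest adjusted p was 0.60. Col20a1 was the 1 lower collagen, against 3.18% of all probes. NP+tau was above NP without overlap for 11 collagens then, against 14.7% of all probes. The opposite held without NP replicate 1, where all 11 fibrillar genes were below 0 (median -0.35). Leaving out NP+tau replicate 2 gave 3 collagens higher at an unadjusted p under 0.05, and leaving out NP replicate 1 or 2 or NP+tau replicate 1 or 3 gave 0. The shares of all probes in those fits are not given here, so these counts only show how the collagen count moved with the muscle left out.

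Other genes stood out in the same muscle. The 6 cartilage markers had a mean level of 5.13 in NP replicate 3 against 4.15 and 4.20 in the other NP muscles and 3.99 to 4.14 in NP+tau, with the proteoglycan Acan at 6.69 against 4.46 to 4.92. Cnmd of that list was at 6.03 in NP replicate 3 against 3.91 to 4.48, and Matn3 at 4.67 against 3.75 to 4.47. Both passed the filter through NP replicate 3 alone and had to be highest there. Sox9, at 4.84 in NP replicate 3, was highest in NP+tau replicate 2 (5.18). Hapln1 and Matn1 of that list did not pass the filter. The collagenase Mmp13, made by hypertrophic chondrocytes and osteoblasts, was at 3.32, 3.87 and 9.91 in NP and at 4.16, 9.33 and 6.81 in NP+tau muscle. Ctsk, the collagen-degrading protease of osteoclasts, was at 6.55, 6.54 and 10.9 in NP and 6.94, 9.84 and 8.22 in NP+tau, and Mmp9 at 6.15, 6.02 and 10.8 in NP and 6.21, 9.14 and 7.23 in NP+tau. These 3 proteases, named after their values were seen, were thus high in NP replicate 3 and NP+tau replicate 2, where Col11a1 was also highest. Neutrophil markers had a mean level of 7.97, 5.65 and 9.55 in NP and of 7.45, 7.03 and 8.46 in NP+tau, and tendon markers one of 6.57, 7.04 and 7.996 in NP and 7.46, 6.63 and 7.48 in NP+tau muscle. Their part in the collagen levels was not tested.

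**Figure D5:**
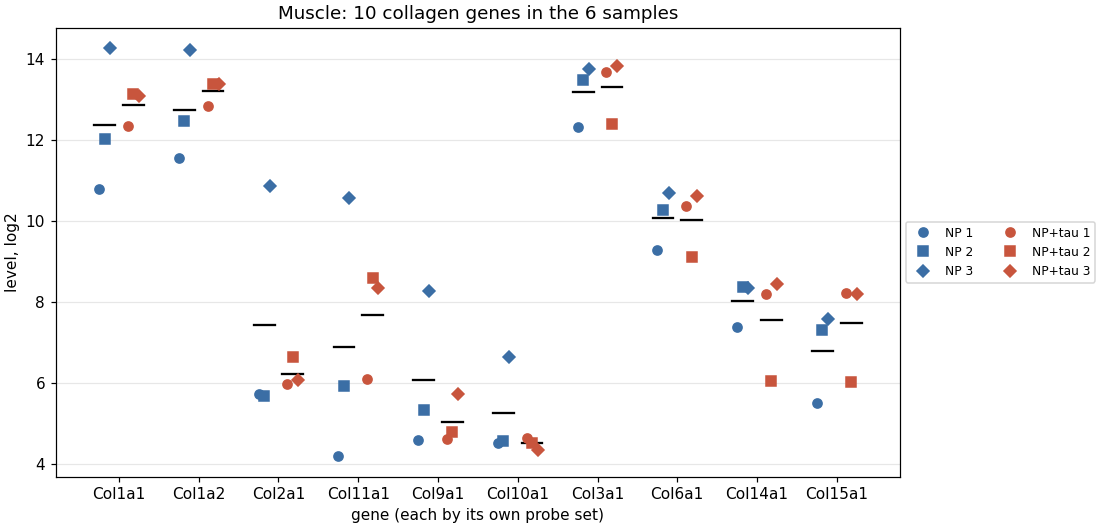
Log2 levels of 10 collagens in the 6 muscles, with blue for NP, red for NP+tau, marker shapes for replicates 1 to 3 and black bars for the group means. Col1a1 to Col10a1 (the 6 genes on the left) are highest in NP replicate 3, and Col3a1 to Col15a1 (the 4 on the right) are lowest in NP replicate 1 and NP+tau replicate 2.

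A second set of collagens, which overlaps those highest in NP replicate 3, shared its pair of lowest muscles. For 11 of 38 collagens, NP replicate 1 and NP+tau replicate 2 were the lowest pair: Col3a1, Col5a1, Col5a3, Col6a1, Col6a2, Col6a3, Col14a1, Col15a1, Col18a1, Col4a1 and Col4a2. Of these, Col5a1, Col6a1, Col6a2 and Col6a3 were highest in NP replicate 3, Col5a1 by 0.50. Col3a1 was at 12.3, 13.5 and 13.7 in NP and at 13.7, 12.4 and 13.8 in NP+tau muscle (difference 0.12, standard error 0.49). Types I and III, which share fibrils, therefore parted: Col3a1 minus Col1a1 was 1.54, 1.45 and -0.53 in NP and 1.35, -0.73 and 0.74 in NP+tau, lowest in the muscles with high Mmp13. Col6a1 was at 9.28, 10.3 and 10.7 in NP and at 10.4, 9.10 and 10.6 in NP+tau, with a difference of -0.04 (standard error 0.49). Col6a2 (difference 0.14, standard error 0.69) and Col6a3 (difference 0.17, standard error 0.61) had their lowest pair in the same 2 muscles. Col14a1 was at 7.38, 8.36 and 8.35 in NP and at 8.20, 6.05 and 8.46 in NP+tau. Dpt, a fibroblast gene, was at 8.40 and 7.72 in these 2 muscles and at 9.48 to 9.90 in the other 4. Tnmd, a tendon gene, was at 6.35 and 5.65 against 8.21 to 8.66. Both genes were chosen after their values were seen, and other fibroblast markers did not share this split. Pdgfra and Des were highest in NP replicate 1 (9.57 and 13.05), and Pdgfrb was highest in NP+tau replicate 2 (10.01). The mean level of the 12 fibroblast markers was 7.74 in NP replicate 1, 7.47 in NP+tau replicate 2 and 8.01 to 8.05 in the rest. The part of these cells in the collagen levels was not tested. Col5a1 (difference 0.17, standard error 0.63) and Col5a2 (difference -0.02, standard error 0.55) parted in the same way, with Col5a2 at 11.8 in NP replicate 3 against 9.53 to 10.7.

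Among the 7 basement membrane collagens of muscle, NP replicate 3 was the highest for 0. Col4a1 was at 11.1, 11.4 and 11.2 in NP and at 11.8, 11.1 and 11.9 in NP+tau muscle (difference 0.35, standard error 0.24). Col4a2 was at 10.4, 10.6 and 10.4 in NP and at 10.9, 10.3 and 10.9 in NP+tau (difference 0.23, standard error 0.22). NP+tau replicates 1 and 3 lay above every NP muscle for both genes and NP+tau replicate 2 was the lowest of the 6, for Col4a1 level with NP replicate 1. Col4a1 minus Col4a2 stayed between 0.70 and 0.92 in the 6 muscles. Col4a5, an X-linked type IV chain, was at 4.22, 4.86 and 5.31 in NP and at 6.14, 5.07 and 6.82 in NP+tau muscle. The groups overlapped through NP+tau replicate 2, and the difference was 1.22 (standard error 0.47, unadjusted p = 0.036, adjusted p = 0.71 from limma), whereas a second probe set of the gene differed by -0.11. Col15a1 was at 5.50, 7.31 and 7.59 in NP and at 8.22, 6.03 and 8.21 in NP+tau (difference 0.68, standard error 0.75), and Col18a1 differed by -0.02 (standard error 0.27). Smooth muscle and pericyte markers were above 0 for 7 of 7, with a mean level of 8.52 to 8.84 over the NP and 8.82 to 9.50 over the NP+tau muscles. Endothelial markers were above 0 for 7 of 8 (median 0.36), among them Cdh5 and Tie1 at 0.73 each. Their mean level was 8.05 to 8.20 over the NP and 8.33 to 8.52 over the NP+tau muscles, without overlap. By sample, the endothelial mean was 8.05, 8.08 and 8.20 in NP and 8.52, 8.47 and 8.33 in NP+tau muscles 1, 2 and 3. The mean deviation of the basement membrane class from the gene medians was -0.53, -0.02 and 0.0028 in NP. In NP+tau it was 0.45, -0.46 and 0.47. The part of either cell type was not tested.

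The FACIT class of muscle had 6 of 8 genes below 0 and a median of -0.36, which was 0.0012 without NP replicate 3. Col20a1 was the collagen whose groups did not overlap downwards, at 6.37, 6.14 and 6.11 in NP and at 5.95, 5.62 and 5.72 in NP+tau muscle. The difference was -0.44 (standard error 0.16, unadjusted p = 0.025, adjusted p = 0.71 from limma), with its 2 other probe sets above the filter at -0.37 and -0.44. Col26a1 was the one above without overlap, at 4.56, 4.57 and 4.43 in NP and 4.96, 4.72 and 4.69 in NP+tau, close to the limit of the filter (difference 0.27, standard error 0.14). Col8a1, a network collagen of vessel walls, was at 5.09, 6.63 and 7.83 in NP and at 7.30, 6.71 and 8.20 in NP+tau (difference 0.89, standard error 0.69). The differences of Col9a3 (-0.58, standard error 0.41) and Col10a1 (-0.74, standard error 0.55) rested on NP replicate 3, and were -0.07 and -0.04 without it. All 3 transmembrane collagens that passed the filter were below 0, with Col25a1 at -0.23 (standard error 0.16) and Col23a1 at -0.21 (standard error 0.17).

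Of the wider pathway in muscle, Itga1 had the smallest unadjusted p of the listed genes. This chain of the α1β1 integrin, a receptor for collagen IV and other collagens, was at 5.04, 5.12 and 5.58 in NP and at 6.50, 6.37 and 6.53 in NP+tau muscle. The groups did not overlap, and the difference was 1.22 (standard error 0.18, adjusted p = 0.71 from limma). Of the 7 receptors above the filter, 5 were above 0, with Gp6, the platelet receptor, at -0.32 (standard error 0.13) and Itga2 at -0.22 (standard error 0.14). In collagen modification and folding, 10 of 16 were above 0, with the lysyl hydroxylase Plod1 at 7.93, 8.03 and 8.46 in NP and 8.75, 8.58 and 8.61 in NP+tau (difference 0.51, standard error 0.18), P4ha2 at 0.98 (standard error 0.45) and P3h2 at 0.35 (standard error 0.21). Of 11 fibril assembly partners, 6 were below 0, among them Dcn, the proteoglycan decorin, at 12.8, 12.4 and 12.6 in NP and 12.2, 12.3 and 12.1 in NP+tau (difference -0.42, standard error 0.15), with Tnxb at -0.43 (standard error 0.31) and Postn at 0.54 (standard error 0.59). Breakdown (4 above and 7 below 0), export and cleavage (4 and 4) and cross-linking (1 and 3) had no gene at an unadjusted p under 0.05, and in all 6 lists 0 genes passed adjustment in muscle. The smallest p in these 3 lists belonged to Mmp2 at -0.38 (standard error 0.21), Mia3 at 0.49 (standard error 0.40) and Loxl1 at 0.37 (standard error 0.29).

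Whether the taurine difference itself differed between tissues was tested for the 32 collagens with a probe set above the filter in both. No collagen passed (smallest adjusted p 0.54 from limma), with 2 at an unadjusted p under 0.05 as higher in muscle and 3 as lower, against 5.35% and 2.45% of all 25622 probes. Col20a1 had a difference of 0.38 in liver and -0.44 in muscle, so that muscle minus liver was -0.82 (standard error 0.26). For Col6a1 the differences were -1.88 and -0.04, and muscle minus liver was 1.84 (standard error 0.69). Col13a1 differed by 0.56 in liver and -0.33 in muscle, or -0.89 between them (standard error 0.38). Col9a1, measured here by the probe set brightest over both tissues, differed by 0.51 and -0.71, or -1.22 between them (standard error 0.51). With the Xist level as a covariate, 4 of the 32 passed. Col4a2 was higher in muscle (against 8.79% of all probes), and Col6a4, Col22a1 and Col23a1 were lower (against 4.58%). That fit again rests on liver NP+tau replicate 1, through which alone Col6a4 and Col23a1 had passed the liver filter. The probe set used for Col22a1 differed by -0.37 in muscle without the covariate, whereas other probe sets of the gene differed by 0.37 and 0.16 there.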

How the data were processed

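Affymetrix mouse arrays of liver and muscle, 3 per diet group and tissue, were summarised by the authors with justRMA into quantile normalised log2 expression values, each tissue apart, and those deposited values were used unchanged (45101 probes, no other per-sample column). RMA compresses differences of dim probes, and quantile normalisation gives all arrays of a tissue one distribution, so that a shift shared by most genes is not seen. In place of the authors' filter on absent calls, the 64 controls were dropped and probes stayed in if their highest value in the tissue reached the 35th percentile of such values (29274 probes).

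Of the probes, 34958 carried 1 symbol, 932 carried several, and 9211 were not named here. Diet groups were compared in R 4.3.3 with limma 3.58.1 (lmFit, eBayes), adjusted by Benjamini-Hochberg over the kept probes (threshold 0.05), and between tissues by an interaction over 25622 probes. The tests that the methods name for gene sets and for mitochondrial probes were not used here. The limma script was tested on simulated data. The collagens, their classes, pathway and marker lists were chosen with earlier results of these data known. Named are 12 collagens by role, the 5 higher and 5 lower with the smallest p per tissue, up to 3 genes per pathway list and 4 for the tissue difference; others, chosen after their values were seen, show the order of samples. Alternatives were no filter, a stricter filter (50th percentile), an intensity trend, array weights, centred arrays, an adjusted p under 0.1, adjustment for Xist, a block for the replicate number (animal as a random block, with statmod 1.5.0, for the interaction), the mean of all probes of a gene, and each sample left out. Further software was the R package data.table, version 1.17.8, and matplotlib 3.10.9.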

Additional observations from a re-analysis of the deposited data

How the results depend on the processing

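The count of 0 collagens passing in liver, in muscle and in the interaction held under the alternatives run except the Xist covariate, with 14 in liver and 4 in the interaction; it was also 0 with each sample left out. The liver median of 0.16 became -0.0078 with array weights and -0.0093 without NP replicate 1 and NP+tau replicate 1, and lay between 0.04 and 0.26 with 1 liver left out. The muscle median of 0.05 became -0.011 with centred arrays and lay between -0.30 and 0.34 with 1 muscle left out. Centring moved the median of all probes from -0.04 to 0.07 in liver, where the collagen median then was 0.27, and from 0.01 to -0.04 in muscle.

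Signs of single genes turned as follows. In liver, Col18a1 was -0.079 with array weights, -0.16 with the Xist covariate, -0.17 without the 2 replicates 1, and -0.24 to 0.22 with 1 liver left out, while Col3a1 and Col5a1 were 0.10 and 0.29 with the Xist covariate. In muscle, Col18a1 was 0.0065 with array weights and 0.27 with the Xist covariate, Col6a1 was 0.27 with the Xist covariate, and Col5a2 was 0.17 by the mean of all probes. With 1 muscle left out, ranges that crossed 0 were -0.30 to 1.45 for Col1a1, -0.15 to 1.19 for Col1a2, -0.31 to 0.57 for Col3a1, -0.48 to 0.78 for Col5a1, -0.49 to 0.66 for Col5a2, -0.44 to 0.43 for Col6a1, -0.52 to 0.74 for Col6a2, -0.42 to 0.68 for Col6a3 and -0.18 to 0.25 for Col18a1. The cause was not tested.

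The replicate numbers do not pair the samples: deviations of same-numbered samples correlated at 0.02, -0.11 and 0.11 in liver and at -0.21, -0.27 and 0.33 in muscle. With the replicate number as a block, 0 collagens passed in either tissue, and the medians of 0.16 and 0.05 were unchanged because the block is balanced. With the animal as a random block in the interaction (consensus correlation 0.15), 0 collagens passed. With 6 arrays per tissue, differences of single genes the size of those seen here could not be separated from the spread between animals, and levels near 4.60 in liver or 4.49 in muscle lie at the limit of the filter.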
